A study of Mus musculus with 8 samples.

Results

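The genes of the circadian clock were examined in the ventral lumbar spinal cord of mice that express mutant SOD1 in skeletal muscle. The 10 genes were Arntl, Clock, Per1, Per2, Per3, Cry1, Cry2, Nr1d1, Nr1d2 and Dbp, and their rows were found by gene symbol. Of these, 9 had a transcript cluster (the set of probes that measures a transcript) of their own, among the 22180 genes so measured and the 41345 clusters on the array. The only Per2 row also lists 9830107B12Rik, so it is described separately and is in no count of clock genes.

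Total RNA was hybridised to Affymetrix Mouse Gene ST arrays from 4 MLC/SOD1G93A samples and 4 FVB samples, all 120 days old. MLC/SOD1G93A mice carry a mutant SOD1 transgene (SOD1G93A, an allele of familial amyotrophic lateral sclerosis) under the Myosin Light Chain promoter, which is muscle specific, and the cord that was measured is not the tissue that promoter is meant for. FVB is the inbred strain used as the control, and the labels give FVB as the strain of both groups with no treatment. Nothing in the labels ties a replicate number to an animal of its own, so the spread behind each p-value may be partly technical. The methods describe housing on a light-dark cycle, and the hour at which each cord was taken is not given in the sources used here. Values are log2 signals deposited by the authors, so a difference of 1 is a doubling, and every difference is the MLC/SOD1G93A mean less the FVB mean.

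The circadian clock is a transcriptional feedback loop that runs in nearly all cells, those of the spinal cord included, with a period of about a day. ARNTL (also called BMAL1) and CLOCK pair to activate the Per, Cry, Nr1d and Dbp genes through E-box sequences, and the PER and CRY proteins return to the nucleus to block them. The REV-ERB receptors encoded by Nr1d1 and Nr1d2 repress Arntl, so that Arntl transcripts peak roughly in antiphase to those of Dbp, Per and Nr1d in most mouse tissues. Because these transcripts move with the hour, a cord taken once gives 1 point of each rhythm and neither its amplitude nor its phase.

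No clock gene passed the adjusted test. The clock genes with the largest differences, Per1 and Arntl, went in opposite directions. Per1 was 1.35-fold higher and Arntl 1.17-fold lower in MLC/SOD1G93A cord (n = 4 per genotype), each at an unadjusted limma p under 0.05, with limma adjusted p = 0.686 and 0.71. Of the 9 clock genes, 6 were higher and 3 lower, and 0 reached an adjusted p under 0.05, as for 0% of all clusters, where the smallest adjusted p was 0.359. At an unadjusted p under 0.05, 1 of 9 clock genes was higher and 1 of 9 lower, against 3.61% and 3.08% of all clusters. The genotypes did not overlap for 0 clock genes in the higher direction and 1 in the lower, against 2.11% and 2.10% of all clusters. With the criteria of the methods, a p under 0.05 from a one-way analysis of variance and a fold over 1.5, 0 clock genes and 0.646% of clusters passed. The median difference of the clock genes was 0.09, against 0.00 over all clusters, and the median size of their difference was 0.102, against 0.0956 over all clusters. With 9 genes, counts of 1 are too small to set the clock genes apart from that background.

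**Figure D1:**
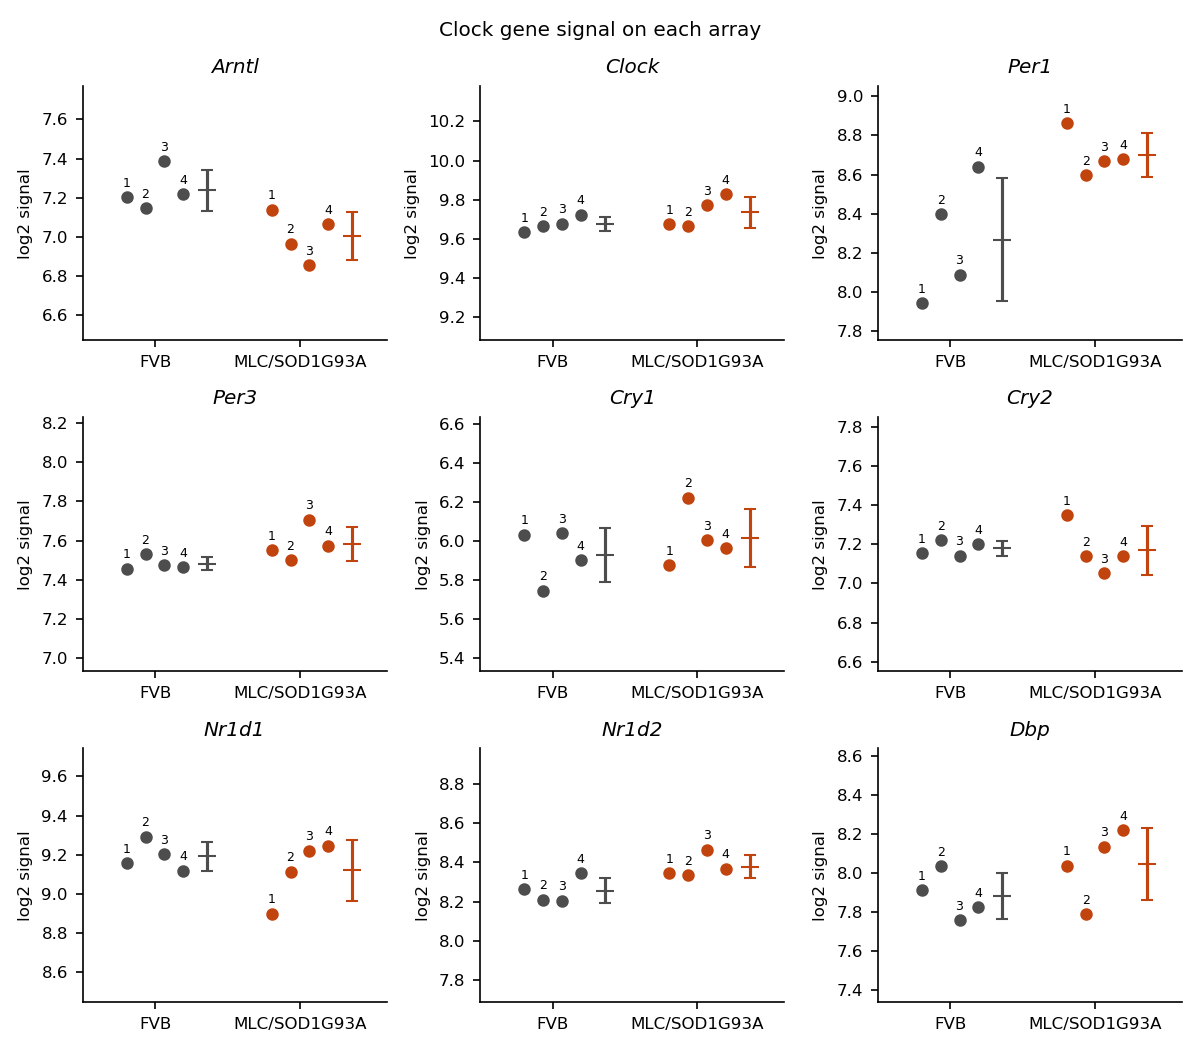
Log2 signal (y axis, all panels spanning the same range) of the 9 clock genes on the 4 FVB and 4 MLC/SOD1G93A arrays, numbered by replicate, with bars for the mean and SD. The genotypes separate for Arntl, and for Per1 FVB replicate 4 at 8.64 lies above MLC/SOD1G93A replicate 2 at 8.60.

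The start sites of the clock genes are shown first, because the loop acts through short sequences there. RefSeq promoter windows (build GRCm38.p6, 250 bases before to 50 after a start) were found for 9 of the 10 genes, with 13 windows in all because some genes have several starts. They were searched on both strands for the E-box CACGTG bound by CLOCK and ARNTL, the D-box TTATGTAA or TTACGTAA bound by DBP, the ROR element TAGGTCA shared by the ROR and REV-ERB receptors, and the cyclic AMP element TGACGTCA, and no 2 of the matches overlapped. These letters occurred in 7.15%, 1.06%, 2.61% and 1.79% of all 32851 windows. Matches lay in 4 of the 13 windows, and none of the 13 held the cyclic AMP element. For Per1 and Arntl, the genes with the largest differences, the window with a match is given whole in the direction of transcription. Matched letters are in capitals. The Per1 window shown is chr11:69098699-69098998 on the plus strand, with an E-box that begins 166 bases before the start. The Arntl window shown is chr7:113207261-113207560 on the plus strand, with a ROR element 30 bases after the start. Each gene has another window, chr11:69099902-69100201 for Per1 and chr7:113207215-113207514 for Arntl, and neither held a match.
Per1: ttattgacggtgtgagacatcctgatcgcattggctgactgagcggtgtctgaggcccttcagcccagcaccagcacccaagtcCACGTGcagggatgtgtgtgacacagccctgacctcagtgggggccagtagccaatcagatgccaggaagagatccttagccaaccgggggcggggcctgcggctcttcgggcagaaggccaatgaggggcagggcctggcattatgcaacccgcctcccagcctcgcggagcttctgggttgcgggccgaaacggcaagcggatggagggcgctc
Arntl: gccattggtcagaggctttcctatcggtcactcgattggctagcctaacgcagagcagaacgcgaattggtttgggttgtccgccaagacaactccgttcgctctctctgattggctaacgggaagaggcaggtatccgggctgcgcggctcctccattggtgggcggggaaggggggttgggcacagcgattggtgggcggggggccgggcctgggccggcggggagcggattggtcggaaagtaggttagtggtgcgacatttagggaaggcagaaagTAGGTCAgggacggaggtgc

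The other matches were in Cry1 and Per3, and the matched letters with their flanks are shown because each lies before a repressor gene of the loop. The Cry1 stretch is chr10:85185089-85185134 on the minus strand, with an E-box 60 bases before the start. The Per3 stretch is chr4:151044796-151044890 on the minus strand, and it holds 2 D-boxes, 205 and 158 bases before the start.
Cry1: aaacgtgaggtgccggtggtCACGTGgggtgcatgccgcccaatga
Per3: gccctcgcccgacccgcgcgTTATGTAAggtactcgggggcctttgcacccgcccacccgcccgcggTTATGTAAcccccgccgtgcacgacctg
A match is a run of letters and not a measured binding site, and nothing is drawn from the windows without one.

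Arntl, the activator that pairs with CLOCK, had the lower signal in MLC/SOD1G93A cord. Its log2 signal was 7.20, 7.15, 7.39 and 7.22 on FVB replicates 1 to 4. On MLC/SOD1G93A replicates 1 to 4 it was 7.14, 6.97, 6.86 and 7.06. All 4 MLC/SOD1G93A arrays lay below all 4 FVB arrays, with MLC/SOD1G93A replicate 1 just under the lowest FVB array. The means were 7.24 ± 0.10 and 7.01 ± 0.12 (SD, n = 4 each), a difference of -0.23 with a 95% interval from -0.44 to -0.03 (limma adjusted p = 0.71). The exact two-sided permutation test gave p = 0.0286, the smallest that 70 relabellings of 4 against 4 arrays allow. The unadjusted limma p of Arntl went past 0.05 on leaving out either FVB replicate 3 (difference -0.18) or FVB replicate 4 (-0.24), and likewise MLC/SOD1G93A replicate 2 (-0.22) or 3 (-0.18). Whichever array was left out, the difference stayed between -0.28 and -0.18.

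Clock, the partner of Arntl and a histone acetyltransferase, was close to level between the genotypes. It ranged from 9.63 to 9.72 on the FVB arrays and from 9.66 to 9.83 on the MLC/SOD1G93A arrays. The difference was 0.06 with a 95% interval from -0.10 to 0.22 (limma adjusted p = 0.901, exact permutation p = 0.286), so the interval left out a difference of the size seen for Arntl in either direction. The residual spread of both activator genes was small, in the lowest 25.3% of clusters for Arntl and the lowest 4.56% for Clock.

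Per1, a Period gene that hormonal and neural signals induce directly, had the largest difference of the 9. Its log2 signal was 7.94, 8.40, 8.09 and 8.64 on FVB replicates 1 to 4. On the MLC/SOD1G93A arrays it was 8.86, 8.60, 8.67 and 8.68. The MLC/SOD1G93A arrays lay close together at the top of the range, while the FVB arrays were spread and FVB replicate 4 reached the MLC/SOD1G93A level. The means were 8.27 ± 0.31 for FVB and 8.70 ± 0.11 for MLC/SOD1G93A (SD, n = 4 each), a difference of 0.43 with a 95% interval from 0.09 to 0.78 (limma adjusted p = 0.686). The exact permutation test gave p = 0.0571. The unadjusted limma p of Per1 went past 0.05 on leaving out FVB replicate 1 (difference 0.33), FVB replicate 3 (0.37) or MLC/SOD1G93A replicate 1 (0.38), and the difference stayed between 0.33 and 0.56 whichever array was left out.

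Per3, a Period gene that is not needed for the rhythm itself in mice, differed little. FVB arrays ranged from 7.46 to 7.53 and MLC/SOD1G93A arrays from 7.50 to 7.71, with MLC/SOD1G93A replicate 3 highest. The difference was 0.10 (95% interval -0.06 to 0.26, limma adjusted p = 0.828, exact permutation p = 0.0571). Without MLC/SOD1G93A replicate 3 it was 0.06. Whether the Per1 and Per3 differences are unequal was not tested.

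Per2, the Period gene whose loss disrupts the mouse rhythm most, shares its row with 9830107B12Rik, and signal from the pair cannot be told apart. That row read 6.77, 6.88, 6.64 and 7.05 on the FVB arrays and 7.05, 6.96, 7.26 and 7.21 on the MLC/SOD1G93A arrays. FVB replicate 4 was again the highest FVB array, and it overlapped the MLC/SOD1G93A range. The difference was 0.29 ± 0.11 (SE), with a 95% interval from 0.03 to 0.54 (limma adjusted p = 0.713, exact permutation p = 0.0571). Its unadjusted limma p went past 0.05 without FVB replicate 1 (difference 0.26) or 3 (0.22), without replicate 3 (0.24) or 4 (0.26) of MLC/SOD1G93A, and without the 3 arrays with high Xist signal (0.24).

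The cryptochromes Cry1 and Cry2, which carry most of the repression of CLOCK and ARNTL, showed no difference beyond the spread. Cry1 ranged from 5.74 to 6.04 on FVB arrays and from 5.88 to 6.22 on MLC/SOD1G93A arrays, with a difference of 0.09 (95% interval -0.15 to 0.32, limma adjusted p = 0.909, exact permutation p = 0.457). The Cry1 difference was 0.0246 without FVB replicate 2 and 0.0176 without MLC/SOD1G93A replicate 2. Cry2 ranged from 7.14 to 7.22 and from 7.05 to 7.35, with a difference of -0.01 (95% interval -0.19 to 0.17, limma adjusted p = 0.989, exact permutation p = 0.857). The sign of the Cry2 difference turned when any of 4 arrays was left out. A second row, shared by Cry2 and D930015M05Rik, differed by -0.24 (limma adjusted p = 0.809, exact permutation p = 0.143) and belongs to neither gene alone.

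The REV-ERB genes, which encode heme-binding repressors of Arntl, pointed in different directions, and neither passed the test. Nr1d1 read 9.16, 9.29, 9.20 and 9.12 on FVB replicates 1 to 4. On the MLC/SOD1G93A arrays it read 8.90, 9.11, 9.22 and 9.25, so that replicate 1 was the lowest of all 8 arrays and replicates 3 and 4 were inside the FVB range. The difference was -0.07 (95% interval -0.29 to 0.14, limma adjusted p = 0.917, exact permutation p = 0.543), and without MLC/SOD1G93A replicate 1 it was 0.00.

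Nr1d2 read 8.26, 8.21, 8.20 and 8.34 on the FVB arrays and 8.34, 8.33, 8.46 and 8.37 on the MLC/SOD1G93A arrays. FVB replicate 4 was the only FVB array inside the MLC/SOD1G93A range. The difference was 0.12 ± 0.07 (SE), with a 95% interval from -0.03 to 0.28 (limma adjusted p = 0.787, exact permutation p = 0.0857). Nr1d2 was among the least variable clusters, with a residual SD above only 4.85% of them. The methods' one-way analysis of variance took Nr1d2 under an unadjusted p of 0.05, and limma, which draws small variances towards those of other clusters, did not.

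Dbp, the output activator that binds D-boxes and is among the transcripts of largest daily swing in mouse tissues, overlapped between the genotypes. It read 7.91, 8.04, 7.76 and 7.82 on FVB replicates 1 to 4. On the MLC/SOD1G93A arrays it read 8.04, 7.79, 8.13 and 8.22. Replicate 2 was thus low, replicates 3 and 4 were above all FVB arrays, and replicate 1 was level with the highest of them. The difference was 0.16 (95% interval -0.09 to 0.41, limma adjusted p = 0.825, exact permutation p = 0.2), and without MLC/SOD1G93A replicate 2 it was 0.25, with an unadjusted limma p under 0.05.

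**Figure D2:**
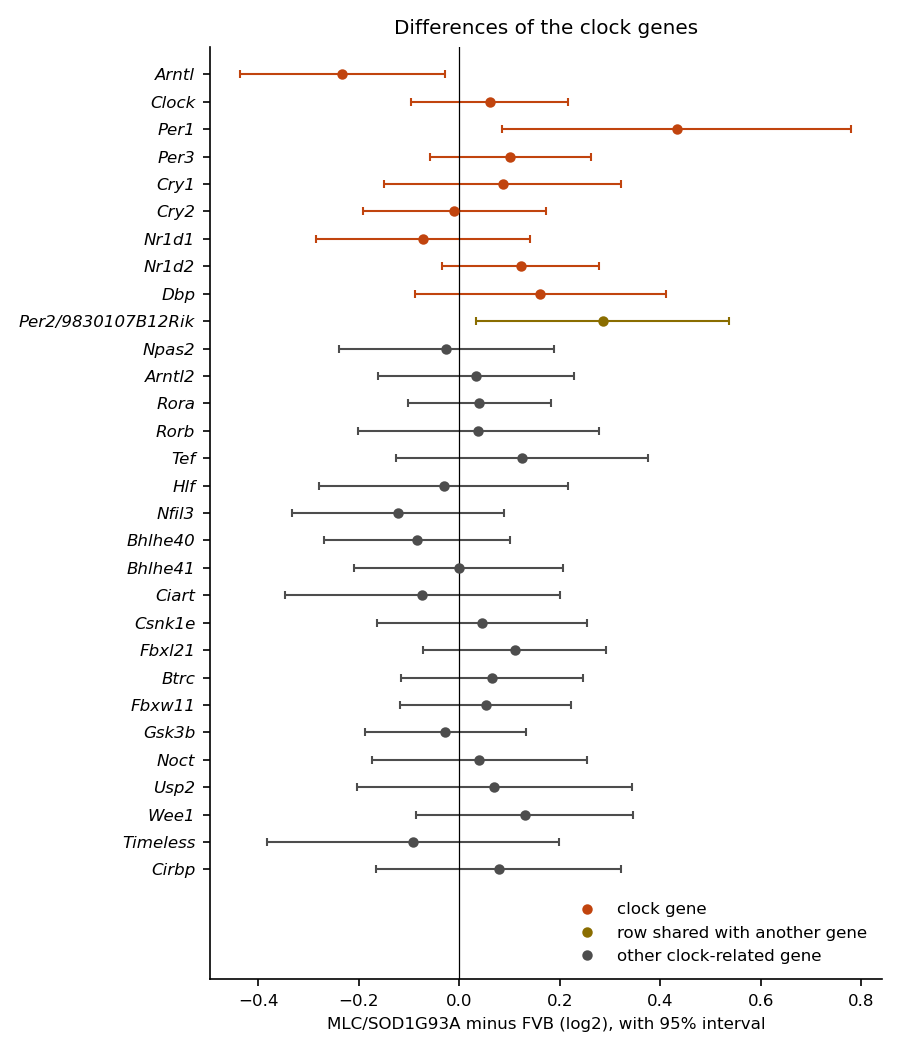
Difference between MLC/SOD1G93A and FVB on the log2 scale (x axis, points) with its 95% interval (bars) for the 9 clock genes, the row shared by Per2 and 9830107B12Rik, and 20 other clock-related genes. The intervals of Per1, Arntl and the shared row leave out 0, and those of the other rows include it.

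The other genes of the loop were read as whole lists. Of the 20 analysed, each with a cluster of its own, 12 were higher and 8 lower, with 0 in either direction at an unadjusted p under 0.05. Their differences ran from -0.12 for Nfil3, the repressor that competes with DBP at D-boxes, to 0.13 for Wee1, a cell cycle kinase under clock control. Tef, a paralog of Dbp, differed by 0.12 and Hlf, the other paralog, by -0.03. The receptors Rora and Rorb, which activate Arntl through the element that REV-ERB occupies, both differed by 0.04, beside the Arntl difference of -0.23. The repressors Bhlhe40, Bhlhe41 and Ciart, which act on CLOCK and ARNTL, were at -0.08, -0.00 and -0.07. Npas2, which can replace CLOCK in the brain, differed by -0.03, and Arntl2, a paralog of Arntl, by 0.03. Fbxl21, which encodes a ubiquitin ligase subunit for CRY, had the smallest p of the 20 (difference 0.11, limma adjusted p = 0.841, exact permutation p = 0.143).

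**Figure D3:**
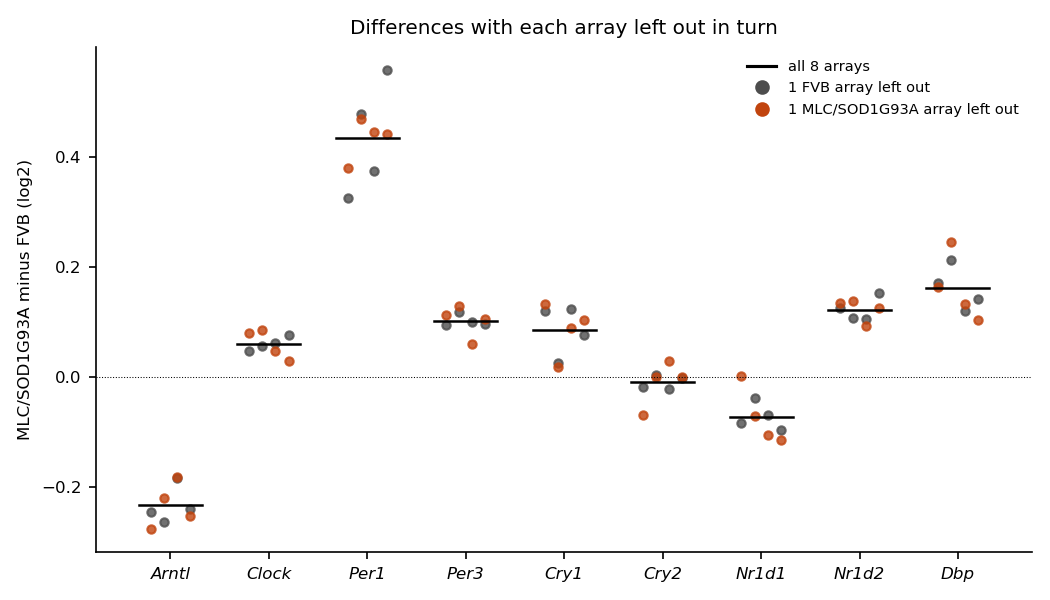
Difference between MLC/SOD1G93A and FVB on the log2 scale (y axis) for each clock gene (x axis) with all 8 arrays (lines) and with each array left out in turn (points, coloured by the genotype of the array left out). Per1 stays between 0.33 and 0.56 and Arntl between -0.28 and -0.18, while Cry2 and Nr1d1 cross 0.

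The arrays differed in more than genotype, in ways that the clock genes were read against. Xist, the transcript of the inactive X chromosome, was high (10.4 to 10.5) on 3 arrays. These were replicate 4 of FVB and replicates 3 and 4 of MLC/SOD1G93A, and Xist was low (3.63 to 4.50) on the other 5. The Y-linked Uty, Eif2s3y and Kdm5d read 3.33 to 4.50 on the 3 high-Xist arrays and 7.48 to 8.16 on the other 5. The labels give no sex, but by these transcripts the high-Xist arrays read as female and the rest as male. Sex was thus not balanced, with 1 high-Xist array in FVB and 2 in MLC/SOD1G93A. Sensory ganglion markers (6 of 7 analysed, all 6 higher in MLC/SOD1G93A cord, with 0 at an unadjusted p under 0.05) were high on 4 arrays, replicates 2 and 4 of FVB with 1 and 2 of MLC/SOD1G93A, with list means of 6.33 to 7.01, and were 5.04 to 5.15 on the others. Caudal Hox genes, which mark position along the cord, were higher in MLC/SOD1G93A cord for 9 of 10 analysed. Of these, 8 were at an unadjusted p under 0.05 (against 3.61% of all clusters). The caudal Hox list means were 5.21 to 6.35 on FVB and 6.16 to 6.76 on MLC/SOD1G93A arrays. Pairwise correlations over all clusters were 0.978 to 0.986 within and 0.977 to 0.987 between genotypes. These ranges pool the pairs, so they do not show whether any single array stood apart.

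The clock genes were also read within those splits. For Per1 the difference was 0.59 among the low-Xist arrays (3 FVB, 2 MLC/SOD1G93A) and 0.03 among the high-Xist arrays (1 FVB, 2 MLC/SOD1G93A). For Arntl it was -0.19 and -0.26. Dbp differed by 0.01 in the low-Xist and by 0.35 in the high-Xist arrays, and Nr1d1 by -0.21 and 0.12. Among the arrays with low and with high sensory markers (2 of each genotype in both), Per1 differed by 0.66 and 0.21 and Arntl by -0.34 and -0.13. On the same split Dbp differed by 0.34 and -0.02, and the row shared by Per2 by 0.53 and 0.04. Arntl, Per1, Per3 and Nr1d2 kept 1 sign in all 4 subsets, and Clock, Cry1, Cry2, Nr1d1 and Dbp did not. For Arntl this was fixed in advance, since every MLC/SOD1G93A array lay below every FVB array and no subset could turn its sign. Both splits divide the MLC/SOD1G93A arrays into the same pairs, so the 4 subsets are not separate comparisons, and the high-Xist values rest on 1 FVB array. Whether these differences are unequal between the subsets was not tested.

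Per1 is induced by glucocorticoids as well as by the clock, and a list of 9 other glucocorticoid targets was read beside it. All 9 were higher in MLC/SOD1G93A cord, 7 at an unadjusted p under 0.05 (against 3.61% of all clusters) and 0 at an adjusted one, with a median difference of 0.54. Hif3a and Zbtb16 are also on the list of up-regulated genes that the study drew from these arrays, so the count is not independent evidence of a direction. Tsc22d3, which encodes the leucine zipper protein GILZ, differed by 0.34 (limma adjusted p = 0.565, exact permutation p = 0.0286). Hif3a differed by 0.64 and Zbtb16, which encodes a zinc finger repressor, by 0.66 (limma adjusted p = 0.684 and exact permutation p = 0.0286 for both). The list mean was 7.05, 7.26, 7.23 and 7.61 on FVB replicates 1 to 4 and 7.74, 7.56, 7.89 and 7.96 on the MLC/SOD1G93A arrays. FVB replicate 4, the highest FVB array for Per1, was also the highest FVB array for this list, for the caudal Hox genes and for the Schwann cell markers. Of 6 early genes that light and neural activity induce along with Per1, 5 were lower and 1 higher, with 0 at an unadjusted p under 0.05. Among these, Fos differed by -0.35, Npas4 by -0.17 and Arc by -0.12 (exact permutation p = 0.429, 0.114 and 0.0571). The part of either list in the Per1 difference was not tested.

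Cell type markers also differed between the genotypes. Schwann cell markers were higher for 6 of 6 analysed, all 6 at an unadjusted p under 0.05 (against 3.61% of all clusters), with list means of 7.59 to 8.17 on FVB and 8.06 to 8.69 on MLC/SOD1G93A arrays. Pmp22, Egr2, Dhh and Drp2 of this list are among the genes the study itself listed as up-regulated on these arrays, as are Hoxc13 and Hoxd10 of the caudal Hox list, so these counts are not independent evidence of a direction either. When the Schwann cell list mean entered the fit, the Per1 difference was 0.11, and with the caudal Hox list mean it was 0.16, neither under an unadjusted p of 0.05. The Hox term left Arntl at -0.13 and the row shared by Per2 at 0.00, also past 0.05. The Schwann term went the other way for Arntl, which was at -0.37 with an unadjusted p still under 0.05, and left the row shared by Per2 at 0.29 and past 0.05. Both list means are themselves higher in MLC/SOD1G93A cord, so such a fit removes part of the genotype with them. Oligodendrocyte, astrocyte, microglia and meningeal lists lay lower, with 3 of 3, 2 of 3, 3 of 3 and 5 of 5 genes lower. Of these, 2, 2, 3 and 5 were at an unadjusted p under 0.05 (against 3.08% of all clusters). Opalin, an oligodendrocyte marker here, is on the study's list of down-regulated genes, so its direction is not independent evidence either. The list means ran from 9.69 to 9.91, 9.52 to 9.78, 7.39 to 7.77 and 8.21 to 8.89 on FVB arrays. On MLC/SOD1G93A arrays they ran from 9.26 to 9.54, 8.97 to 9.51, 7.20 to 7.40 and 7.35 to 8.35. The part of these lists in the Per1 and Arntl differences was not tested, and in whole tissue a change in the share of a cell type and a change of transcript per cell cannot be told apart. Neuron markers, with list means of 10.4 to 10.5 on FVB and 10.4 to 10.6 on MLC/SOD1G93A arrays, and motor neuron markers, at 6.17 to 6.64 and 6.20 to 6.73, overlapped between the genotypes, and this scale has no zero from which absence could be read.

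**Figure D4:**
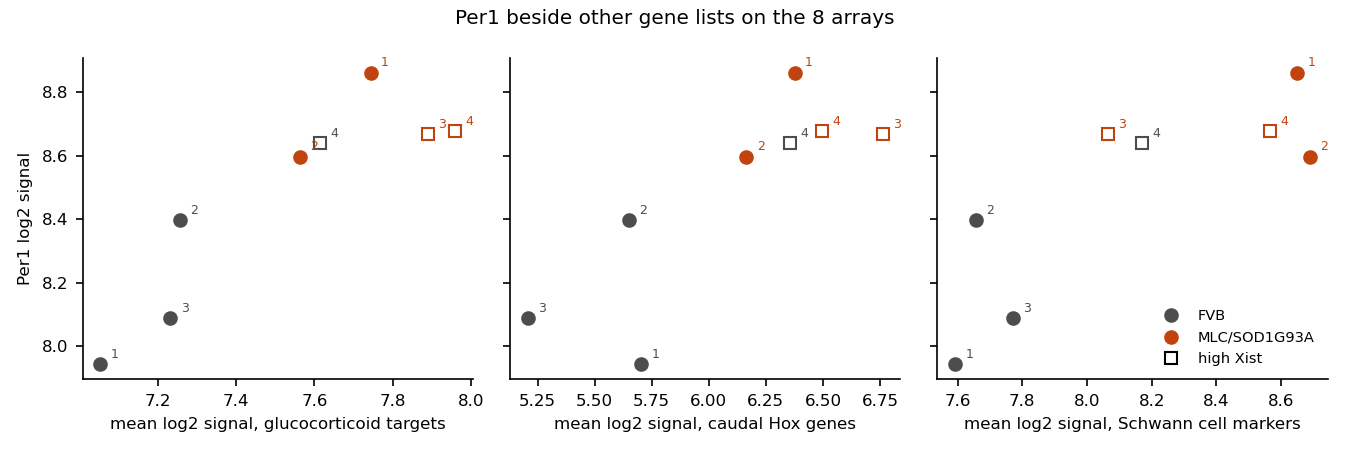
Per1 log2 signal (y axis) against the mean log2 signal of the glucocorticoid targets, the caudal Hox genes and the Schwann cell markers (x axes) on the 8 arrays, numbered by replicate, with open squares for the arrays with high Xist. FVB replicate 4, at 8.64 for Per1, lies among the MLC/SOD1G93A arrays on all 3 axes.

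A list of genes that mark the suprachiasmatic nucleus, the central pacemaker in the hypothalamus and no part of the cord, was read as a contrast. All 5 were lower, 2 at an unadjusted p under 0.05 (against 3.08% of all clusters), with differences of -0.53 for Prok2 (limma adjusted p = 0.684, exact permutation p = 0.0857) and -0.24 for Avp (limma adjusted p = 0.692, exact permutation p = 0.0571). Prok2 is on the list of down-regulated genes of the study, so its direction is not independent evidence, and its signal (4.24 to 5.33) lay below the median signal of each array. The list means were 5.45 to 5.66 on FVB and 5.14 to 5.46 on MLC/SOD1G93A arrays.

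How the clock genes varied among arrays of 1 genotype was described by subtracting each genotype's mean. Over the 8 arrays, Dbp had its highest Pearson r with Per3 (0.63), Clock (0.56) and Nr1d1 (0.45) and its lowest with Cry1 (-0.74). For Arntl r was 0.50 with Cry2, -0.54 with Per3, -0.51 with Nr1d2, -0.50 with Nr1d1 and -0.03 with Per1. For scale, 13.5% of 13730 other clusters (those with 1 symbol and above-median signal) lay under the r of Arntl with Per3, 91.5% under that of Dbp with Per3 and 2.96% under that of Dbp with Cry1. Between Dbp and Arntl r was -0.25, and between Dbp and Per1 it was 0.13. These are descriptions over 8 points that share a normalisation. Whether the arrays were hybridised together is not given in the sources used here. The widest deviations were in Per1, at -0.32 on FVB replicate 1 and 0.37 on FVB replicate 4, followed by Dbp at -0.25 on MLC/SOD1G93A replicate 2 and Nr1d1 at -0.22 on MLC/SOD1G93A replicate 1.

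**Figure D5:**
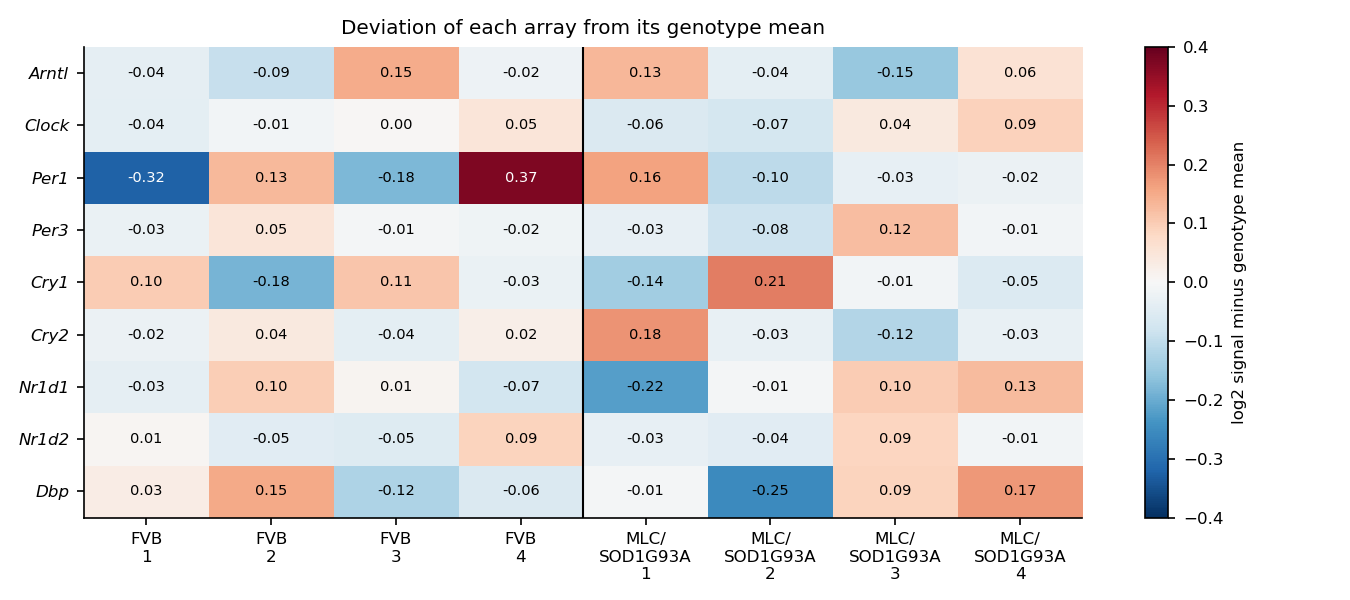
Log2 signal minus the mean of its own genotype (colour and printed value) for the 9 clock genes (rows) on the 8 arrays (columns, by genotype and replicate). Per1 has the widest deviations, -0.32 and 0.37 on FVB replicates 1 and 4, and Clock stays within 0.1 of its means.

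Among the same 13730 clusters, those whose deviations were most like those of Dbp were Lig3 (r = 0.975), Arf4 (0.972), Cycs (0.966), Bloc1s6 (0.964) and A330048O09Rik (0.960). The least like were Ptpn3 (-0.976), Ccl11 (-0.972), Pde3a (-0.963), Tbrg1 (-0.961) and Tbx3 (-0.961). For Arntl the most alike were Gm3594 (0.992), Nedd4 (0.986), Wwc2 (0.977), Creb3l1 (0.975) and Sulf1 (0.975), and the least alike Ypel4 (-0.990), Pcgf5 (-0.988), Cox10 (-0.980), Kantr (-0.975) and Gm4129 (-0.974). None of these 20 genes was a clock gene or on the lists of clock-related genes. With 8 points and this many candidates, the ends of the ranking are a description only.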

How the data were processed

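Total RNA of ventral lumbar spinal cord from 4 FVB and 4 MLC/SOD1G93A samples was hybridised to Affymetrix Mouse Gene ST arrays. The authors deposited log2 signals per transcript cluster, and the submitters' processing notes name Affymetrix Expression Console and RMA (background correction, quantile normalisation and summary of the probes). Their versions and the genome build are not given in the sources used here. Quantile normalisation gives the arrays the same distribution, so a shift of all transcripts would not be seen, and the number of arrays limits the precision.

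Groups and replicate numbers were taken from the sample titles. Gene symbols came from the platform annotation, in which 23521 of 41345 clusters list 1 symbol, 1820 several and 16004 none, and only clusters with 1 symbol were named. The clock genes were each to be read from their cluster of highest mean among these, and each had only 1. All clusters were fitted with limma 3.58.1 (lmFit and eBayes, unpaired, two-sided) in R 4.3.3, with Benjamini-Hochberg adjustment over all clusters. The script was tested on simulated data. Exact permutation tests used all 70 relabellings of the arrays. A list is summarised by counts and by the mean log2 signal of its analysed genes on each array. At most 3 genes of each list (the other clock genes form 6 lists by role) were named with their values, those of lowest p. Others were named only where the study also listed them. Xist, Uty, Eif2s3y and Kdm5d were read per array apart from the lists. Likeness was given for the 5 genes at each end. Clock genes and lists were chosen with earlier results of these data known. Alternatives were the methods' one-way analysis of variance (here called the methods' t-test), array weights, a trended robust prior, a replicate block, other scalings, a signal filter, covariates and leaving out arrays. Same-numbered arrays of the 2 genotypes had deviations that correlated at -0.04, 0.18, -0.08 and 0.24, and the numbers were not taken as pairs.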

Additional observations from a re-analysis of the deposited data

How the results depend on the processing

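In no alternative did a clock gene reach an adjusted p under 0.05; the smallest was 0.464, for Per1. Of 21 alternatives, Per1 kept its direction in all and its unadjusted p under 0.05 in 16, with differences from 0.11 to 0.66. Arntl kept its direction in all and its p in 12, with differences from -0.37 to -0.13. Where arrays were only left out, its direction could not turn, because the genotypes did not overlap for Arntl. With the replicate number as a block, Arntl stayed at -0.23 but went past an unadjusted p of 0.05, so that the count of clock genes lower at an unadjusted p under 0.05 was 0 instead of 1. The same count was 0 with Xist or the caudal Hox mean as a term, without the 3 arrays with high Xist and without the 4 arrays with high sensory ganglion markers, and 0 to 1 when each array was left out. The removals of the high-Xist and of the high-sensory arrays were chosen after seeing the data. The count of clock genes higher was 1, and it was 2 with the methods' t-test (Per1 and Nr1d2), 0 with the caudal Hox or Schwann cell mean as a term, 2 without the arrays with high sensory ganglion markers, and 0 to 2 when each array was left out. Arntl was at -0.21, -0.19 and -0.34 with Xist as a term, without the high-Xist arrays and without the arrays with high sensory markers.

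Directions turned for 3 genes near 0. Cry1 was at -0.0525 without the arrays with high sensory markers. Cry2 was at 0.00936 with Xist as a term and 0.0713 without the high-Xist arrays, and ran from -0.0691 to 0.0295 when each array was left out, above 0 without FVB replicate 2 (0.0039) or without replicates 2 (0.00075), 3 (0.0295) or 4 (0.00027) of MLC/SOD1G93A. Nr1d1 was at 0.0886 with the Schwann cell mean as a term and 0.0543 without the arrays with high sensory markers, and ran from -0.114 to 0.0014 when each array was left out, above 0 without MLC/SOD1G93A replicate 1. Over all clusters, 1 was called at an adjusted p under 0.05 without the arrays with high sensory markers, against 0 otherwise. With only clusters above the median signal, 1837 of 20672 had an unadjusted p under 0.05, against 2769 of 41345 with all. The cause of these shifts was not tested. Another row for a clock gene gave no value, since each had only 1 with a single symbol. Signal over background is not recorded in these values, so no clock gene could be called absent.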
